A study of Mus musculus with 2 samples.

Results

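The genes described here are 10 members of the Wnt and R-spondin signalling niche of the liver: Rspo3, Wnt2, Wnt9b, Wnt4, Wnt5a, Axin2, Sfrp1, Dkk2, Dkk3 and Frzb. They were listed by name, with earlier results of these data known, and each was found among the 31054 genes in the count tables. The data were 2 single-cell RNA libraries of hepatic stellate cell (HSC) preparations, 1 per genotype, from livers of male mice on a C57BL/6 background. The animals of both genotypes carried p16-CreERT2 and the R26-CAG-LSL-RSR-tdTomato-2A-DTR allele, and both received CCl4, a hepatotoxin that injures the pericentral liver, for 4 weeks, together with tamoxifen and diphtheria toxin. p16-Alb-LRTD mice also carried Alb-DreERT2, a recombinase driven by the albumin promoter of hepatocytes, so that hepatocytes with high p16 carried the toxin receptor and were eliminated. p16-LRTD mice lacked Alb-DreERT2 and were the control. Age and the number of mice behind each library are not given in the sources used here. The comparison asks how the niche genes of the cells around the hepatocytes differed once p16-high hepatocytes had been removed.

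Levels were compared within 3 classes of cells, each set by a summed level of gate genes: stellate cells (Lrat, Ecm1, Hgf and Reln, at least 15 per 10000 UMIs), endothelial cells (Kdr, Stab2 and Ptprb, at least 8) and Kupffer cells, the resident macrophages (Clec4f, Cd5l, Vsig4 and Csf1r, at least 8). A UMI is a molecular barcode that marks 1 captured RNA molecule. The p16-LRTD library gave 7852 stellate, 430 endothelial and 283 Kupffer cells, and the p16-Alb-LRTD library gave 6621, 283 and 178. The class sums were 142651137 and 125115995 UMIs for stellate cells, 6154423 and 3983226 for endothelial cells, and 5945102 and 4473285 for Kupffer cells, so that values in the latter classes rest on far fewer molecules. Markers outside the gates went with the names. Stellate markers such as Dcn had a median of 274 and 296 UMIs per 10000 in stellate cells against 2.85 to 3.03 in the other classes, Kupffer cells also held endothelial markers at a median of 5.82 and 7.24, and no cell lacked the markers of its own class. Few cells lay near a gate: at most 2.83% of a class scored within 1.5 times of it. The endothelial and Kupffer cells were those that remained in a preparation enriched for HSCs, so they may not represent those of the whole liver. The libraries shared 95 barcode sequences.

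Levels are given as CPM, the UMIs of a gene per 1000000 UMIs of the class, and ratios as log2 of p16-Alb-LRTD over p16-LRTD. Each value carries a 95% interval that covers counting error only. With 1 library per genotype there are no replicates, no test was possible, and the spread between mice is unknown. A gene was called higher or lower where it had at least 5 CPM on average, differed by at least 1.5-fold and had an interval that left out equality.

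Wnt proteins are secreted, short-range ligands that bind Frizzled receptors and their Lrp5 or Lrp6 co-receptors, which stabilizes beta-catenin and switches on target genes together with TCF/LEF factors. R-spondins do not start this signal. They bind Lgr receptors and keep the ubiquitin ligases Rnf43 and Znrf3 from removing Frizzled receptors, so that the same amount of Wnt gives a stronger response. In the liver, Wnt2, Wnt9b and Rspo3 made by cells near the central vein maintain the pericentral program of hepatocytes. Wnt4 and Wnt5a are best known for signalling that does not pass through beta-catenin. Axin2 is a feedback inhibitor and a common target gene of the beta-catenin branch. Sfrp1 and Frzb (also Sfrp3) are secreted Frizzled-related proteins that bind Wnts outside the cell, Dkk2 blocks the Lrp co-receptors, and Dkk3 is a divergent Dickkopf protein whose role in Wnt signalling is less settled.

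In the GENCODE vM21 annotation of GRCm38 (mm10), Rspo3 lies on chromosome 10 from 29452416 to 29535867, Wnt2 on chromosome 6 from 17988940 to 18030585 and Wnt9b on chromosome 11 from 103727364 to 103749821, all on the minus strand. On the same strand lie Dkk3, on chromosome 7 from 112116017 to 112159057, and Frzb, on chromosome 2 from 80411970 to 80447625. On the plus strand lie Wnt4 (chromosome 4, 137277489 to 137299726), Wnt5a (chromosome 14, 28504750 to 28527448), Axin2 (chromosome 11, 108920349 to 108950783), Sfrp1 (chromosome 8, 23411502 to 23449632) and Dkk2 (chromosome 3, 132085292 to 132180304). Reads of a 3′ library come mostly from the last exon of a gene. The promoters of Wnt2 and Wnt9b are shown because both genes were detected almost only in endothelial cells and were both higher there in p16-Alb-LRTD. The sequences are from RefSeq (GRCm38.p6) and are written 5′ to 3′ on the strand of the gene. The Wnt2 stretch, chr6:18030586-18030695, holds the 110 bases before the GENCODE gene, and the Wnt9b stretch, chr11:103749822-103750071, holds the 250 bases before its first exon.
Wnt2: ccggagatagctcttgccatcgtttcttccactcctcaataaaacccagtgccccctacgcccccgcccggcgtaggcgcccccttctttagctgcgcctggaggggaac
Wnt9b: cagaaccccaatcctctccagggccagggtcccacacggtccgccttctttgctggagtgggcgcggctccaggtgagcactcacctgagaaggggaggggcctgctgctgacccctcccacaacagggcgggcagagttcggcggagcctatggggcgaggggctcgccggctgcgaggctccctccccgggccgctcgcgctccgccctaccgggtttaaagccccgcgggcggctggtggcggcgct
Both strands were searched for words bound by TCF/LEF factors, namely CTTTGAA, the variant CTTTGAT, the further variant CTTTGTA and finally CTTTGTT, for the GATA factor word, which is AGATAA, and for the word of ETS factors, which reads CCGGAAG. Capitals would mark a match. None was found in these stretches, nor in the 250 bases before the RefSeq start of any of the 6 members with an entry (Wnt2, Wnt9b, Wnt4, Axin2, Dkk2 and Frzb). Of 32851 promoters of the same length, 14.84% held at least 1 of the TCF/LEF words, 9.988% the GATA word and 6.907% the ETS word. Rspo3, Wnt5a, Sfrp1 and Dkk3 had no entry.

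The members divided into those of stellate cells and those of endothelial cells. In stellate cells Rspo3 reached 606 CPM (602 to 610) in the control and 729 CPM (724 to 734) in p16-Alb-LRTD, and its order over the classes was the same in both libraries, with stellate cells above endothelial and endothelial above Kupffer cells. The stellate level was 33.0-fold (27.5 to 40.1) and 10.6-fold (9.44 to 12) above the endothelial one. Wnt2 had the opposite pattern. It was at 97.0 and 305 CPM in endothelial cells and at 0.217 and 0.416 CPM in stellate cells, 446-fold (311 to 663) and 733-fold (555 to 987) lower. Its Kupffer level rested on 2 and 1 UMIs and did not differ from the stellate one beyond counting error.

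Wnt9b was likewise a gene of the endothelial class, with 32 and 84 UMIs there, 2 and 5 in all stellate cells and 0 in both Kupffer sets, where the limit that a count of 0 allows was 0.505 and 0.671 CPM. Wnt4, Wnt5a, Axin2 and Frzb were highest in stellate cells in both libraries. For Wnt4 the endothelial and Kupffer levels could not be put in order (ratio 1.06, 0.683 to 1.64, in p16-LRTD). Dkk3 was highest in stellate cells too, but in p16-Alb-LRTD its endothelial level came within 1.81-fold (1.53 to 2.15) of the stellate one, against 9.29-fold (6.79 to 13.1) in p16-LRTD. Sfrp1 and Dkk2 were close to absent from every class: Sfrp1 had 69 and 72 UMIs in all stellate cells and at most 1 elsewhere, and Dkk2 had at most 4 UMIs in any class.

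**Figure D1:**
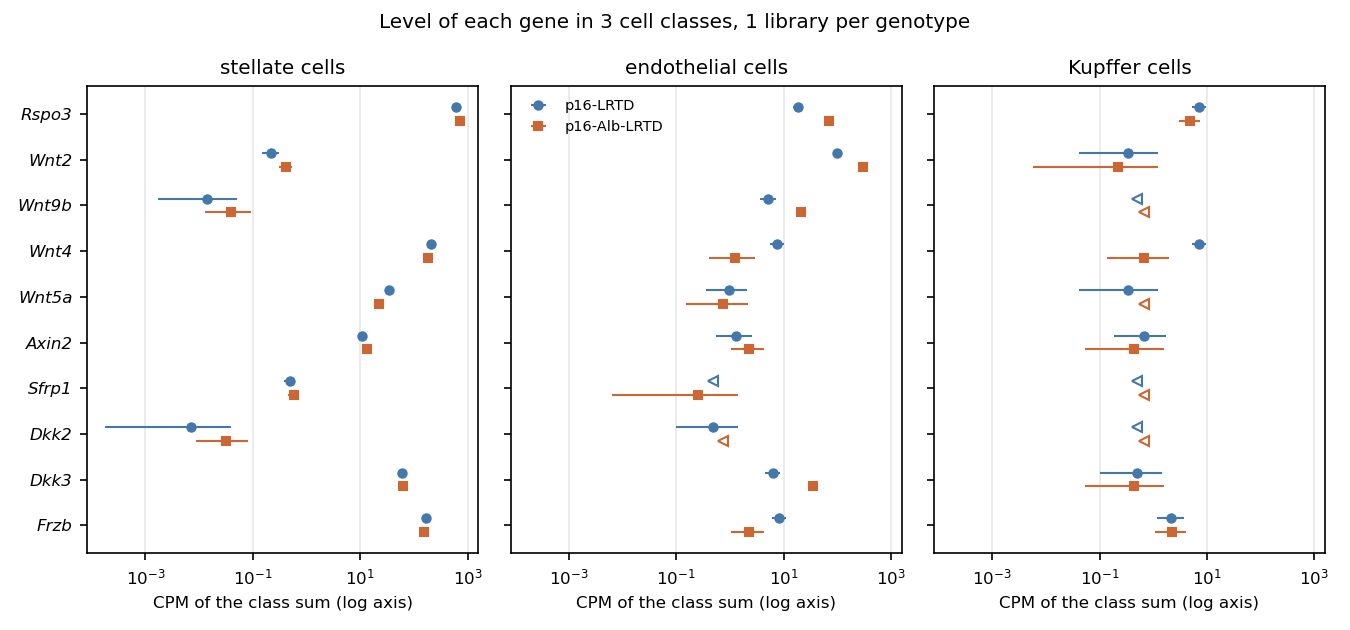
Level of the 10 genes (rows) in stellate, endothelial and Kupffer cells, as CPM of the class sum on a log axis, for p16-LRTD (circles) and p16-Alb-LRTD (squares). Bars are exact Poisson intervals, and open triangles mark genes with 0 UMIs at the limit that a count of 0 allows. Wnt2 and Wnt9b stand out in the endothelial panel, and the other genes, except the rare Sfrp1 and Dkk2, in the stellate panel.

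In stellate cells the differences between the libraries were small, and 1 member, Wnt5a, passed the rule for a call. Rspo3 was higher in p16-Alb-LRTD, from 606 to 729 CPM (log2 ratio 0.27, 0.25 to 0.28), which is short of 1.5-fold. Wnt4 was lower, from 209 to 182 CPM (-0.20, -0.22 to -0.17), also short of 1.5-fold, and its ratio was -0.33 (-0.36 to -0.30) without barcodes with fibroblast or mesothelial transcripts. Wnt5a, a ligand of the non-canonical branch, showed the widest difference among the 6 members above the minimum, with 34.8 CPM (33.9 to 35.8) in the control against 22.7 (21.9 to 23.5), which is -0.62 on the log2 scale (-0.69 to -0.55). By the same rule 3.05% of all 10179 genes at the minimum level were called lower and 3.03% higher. Of the 10 members, 6 reached the minimum level. The Wnt5a ratio lay close to the 1.5-fold line and fell short of it, at -0.57, when the libraries were scaled by TMM or median-of-ratios factors, and at -0.55 when barcodes with fibroblast or mesothelial transcripts were left out, so the call ended there. The fibroblast and mesothelial markers summed to 73.7 CPM in the control and 35.2 CPM in p16-Alb-LRTD stellate cells. In cells under 10000 UMIs the Wnt5a ratio could not be told from equality (-0.07, -0.55 to 0.39).

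The shares of cells gave the same order. After each cell had been thinned to 5000 UMIs, an Rspo3 UMI was found in 87.8% (87.1 to 88.5) of the control stellate cells and in 91.9% (91.3 to 92.6) of those of p16-Alb-LRTD, against 3.96% and 2.26% of Kupffer cells, which should lack it. At full depth, with medians of 17025 and 18136 UMIs, the stellate values were 97.7% and 99.2%. Wnt5a was found in 15.1% (14.3 to 15.9) and 10.1% (9.35 to 10.8) of thinned stellate cells, and Wnt4 in 57.7% (56.6 to 58.8) and 51.3% (50.1 to 52.5). A full-depth stellate cell held a median of 9 Rspo3 UMIs in the control and 12 in p16-Alb-LRTD, and the 10 richest cells held 0.769% and 0.729% of its UMIs, so the difference was not held by a few cells.

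Axin2, the target gene, was higher in p16-Alb-LRTD by less than 1.5-fold, with 10.6 CPM (10.1 to 11.2) in the control against 13.3 (12.7 to 14), or 0.33 on the log2 scale (0.23 to 0.43). In cells of 20000 to 30000 UMIs its ratio was 0.02 (-0.15 to 0.19). Among the secreted inhibitors, Dkk3 was at 58.9 and 63.5 CPM (0.11, 0.07 to 0.15) and Frzb at 166 and 156 CPM (-0.09, -0.12 to -0.06). The Dkk3 ratio was 0.38 (0.33 to 0.44) without barcodes with fibroblast or mesothelial transcripts, 0.32 as a mean over cells and 0.02 at pooled shares of the zone bins, and that of Frzb was -0.03 without those barcodes. The small Dkk3 ratio averaged over depths that went opposite ways, with 2.84 in cells under 10000 UMIs and -0.44 in cells of 20000 to 30000 UMIs. The intervals of these small ratios are narrow only because the class is deep, and they say nothing of how much livers of the same genotype differ. For the rarely detected Sfrp1, the ratio could not be told from equality (0.25, -0.25 to 0.75).

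**Figure D2:**
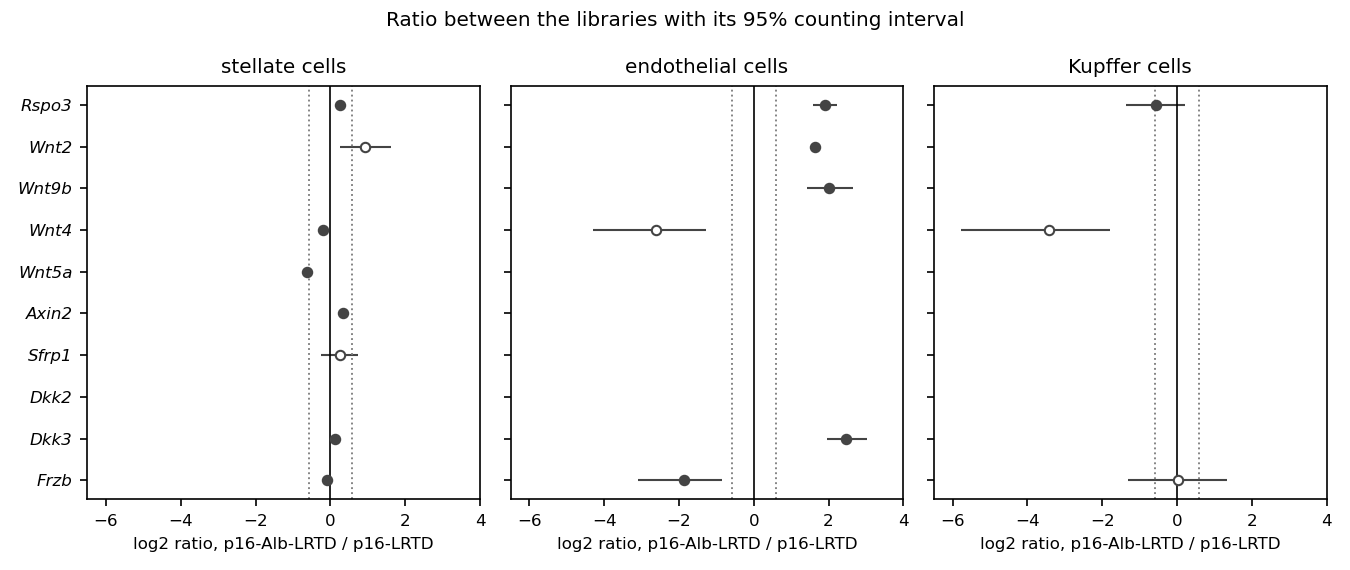
Log2 ratio of p16-Alb-LRTD over p16-LRTD in each class with its 95% counting interval, for genes with at least 20 UMIs in the libraries together and some in each. Open circles are genes under 5 CPM on average, and dotted lines mark 1.5-fold; in endothelial cells Rspo3, Wnt2, Wnt9b and Dkk3 lie to the right of the line, in stellate cells only Wnt5a among the filled circles passes it, to the left.

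Within the stellate class, the cells were set apart by zone markers that are no members: Adamtsl2 or Spon2 for the central side and Ngfr for the portal side. These bins also differed in collagen, since Col1a1 was 26.9-fold (26.2 to 27.6) higher in the central-marker than in the portal-marker cells of the control, and between 5.79- and 6.22-fold higher (counting interval) in p16-Alb-LRTD. Position and collagen content cannot be told apart in them. Cells with a central marker and no Ngfr made up 20.5% of the control class and 29.5% of the p16-Alb-LRTD class, and cells with Ngfr alone 31.1% and 21.1%. Rspo3 was 1.34-fold (1.32 to 1.37) and 1.31-fold (1.28 to 1.33) higher in the central-marker cells. Axin2 showed a steeper gradient in the same direction, 2.15-fold (1.82 to 2.53) and 2.47-fold (2.09 to 2.93), as did Wnt5a with 1.68-fold (1.54 to 1.82) and 1.92-fold (1.71 to 2.16). Frzb was higher there too, 1.63-fold in the control and 1.15-fold in p16-Alb-LRTD, and of the rare Sfrp1 UMIs 29 and 41 lay in central-marker cells against 1 and 4 in portal-marker cells. Both libraries were also given the pooled shares of these bins, an alternative chosen after seeing the data. The Rspo3 ratio between the libraries was then 0.247, below the interval of its value in the whole class (0.266, 0.252 to 0.279).

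Of the members above the minimum level, Dkk3 had the largest fold between the central-marker and the portal-marker cells. In p16-LRTD it was at 104 CPM in central-marker and 7.85 CPM in portal-marker cells, 13.3-fold apart (11.8 to 15.1), and in p16-Alb-LRTD at 100.4 and 18.2 CPM, 5.50-fold apart (5.00 to 6.07). The portal-marker cells thus held more Dkk3 in p16-Alb-LRTD (log2 ratio 1.22, 1.001 to 1.44), while in the central-marker cells the ratio was -0.06 (-0.13 to 0.01). Whether this narrowing exceeds the spread between mice was not tested.

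Collagen content gave a related view, since the central markers went with it: Adamtsl2 was 12.8-fold and Spon2 18.9-fold higher in the cells of highest than in those of lowest collagen level of the control, and 3.66-fold and 8.32-fold in p16-Alb-LRTD. Stellate cells of each library were split into 4 equal groups by collagen level, the summed level of Col1a1, Col1a2 and Col3a1. Group 1 was the lowest and group 4 the highest. The groups do not match in collagen between the libraries, since Col1a1 was at 5469 CPM in group 4 of the control and at 1459.7 CPM in that of p16-Alb-LRTD. Wnt5a was higher in group 4 than in group 1 of both, 1.98-fold (1.82 to 2.15) and 2.59-fold (2.32 to 2.89), and lower in p16-Alb-LRTD in each group. Rspo3 was somewhat lower in group 4, at 519 and 632 CPM against 594 and 740.0 CPM in group 1, and higher in p16-Alb-LRTD in each group. The Rspo3 difference was therefore found in cells of low and of high collagen content alike.

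Wnt4 did not follow one order over the groups. It was lower in group 4 than in group 1 of the control, 188 against 224 CPM, and higher in group 4 of p16-Alb-LRTD, 243 against 155 CPM. Between the libraries it was therefore higher in p16-Alb-LRTD in group 4 (log2 ratio 0.37, 0.32 to 0.41) and lower in group 1 (-0.53, -0.59 to -0.48). By the zone markers, which are not independent of collagen, the same crossing was seen, with 227 CPM in portal-marker and 187 CPM in central-marker cells of p16-LRTD, and 142 and 217 CPM in p16-Alb-LRTD. The single class value for Wnt4 averages over these opposite parts. Frzb was higher in group 4 than in group 1 of both libraries, 202 against 125 CPM in the control and 179 against 138 CPM in p16-Alb-LRTD, so that the ratio between the libraries was 0.14 in group 1 and -0.17 in group 4.

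**Figure D3:**
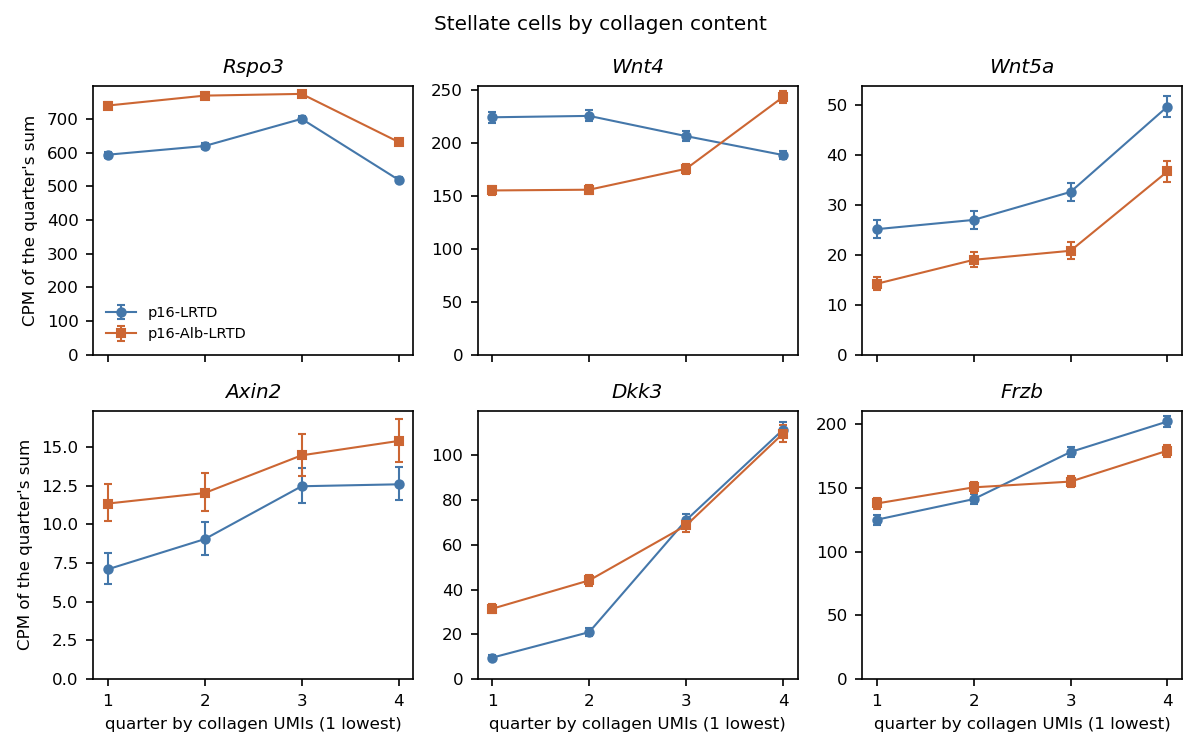
CPM of 6 members in 4 equal groups of the stellate cells, ranked within each library by collagen level (1 lowest, 4 highest), for p16-LRTD (circles) and p16-Alb-LRTD (squares) with exact Poisson intervals. Rspo3, Wnt5a and Axin2 keep their order in each group, whereas the Wnt4 lines cross between groups 3 and 4 and the Dkk3 lines meet in groups 3 and 4.

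In endothelial cells the ratios were larger, and they concerned 3 ligands (Wnt2, Wnt9b and Rspo3) and the secreted proteins Dkk3 and Frzb. Wnt2 had 597 UMIs or 97.0 CPM (89.4 to 105) in the control, against 1213 UMIs or 305 CPM (288 to 322) in p16-Alb-LRTD, a 3.14-fold difference (log2 ratio 1.65, 1.51 to 1.79). Wnt9b stood at 5.20 CPM (3.56 to 7.34) against 21.1 (16.8 to 26.1), 4.06-fold higher (2.02, 1.42 to 2.66). Both ligands of the pericentral niche were thus higher in p16-Alb-LRTD, with intervals far from equality. Rspo3 had 113 UMIs or 18.4 CPM (15.1 to 22.1) against 273 UMIs or 68.5 CPM (60.6 to 77.2), 3.73-fold higher (1.90, 1.58 to 2.23). Dkk3 had the highest ratio of the members called, 5.55-fold (2.47, 1.95 to 3.02), with 6.34 CPM (4.51 to 8.66) against 35.1 (29.6 to 41.5). Of the 10 members, which were listed with earlier results of these data known, 5 reached the minimum level in this class. Wnt2, Wnt9b, Rspo3 and Dkk3 were called higher, where 6.05% of the 9858 genes at the minimum level were, and Frzb was called lower, where 12.4% were. Frzb reached the minimum level through p16-LRTD alone. The median over all these genes was -0.10, and with median-of-ratios factors, which set it to 0, the ratios were 1.75 for Wnt2, 2.12 for Wnt9b, 2.001 for Rspo3 and 2.57 for Dkk3, and the calls over all genes were 841 higher and 856 lower in place of 596 and 1222. The choice of barcodes mattered more. With the mitochondrial limit at 10% the Rspo3 ratio was 1.24, with no limits on barcodes that of Wnt9b was 1.37, and with every barcode that passed the gate, those that passed another gate included, Rspo3 was at 1.12 and Dkk3 at 1.74.

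The Wnt2 difference was carried by many cells. After thinning to 5000 UMIs, a Wnt2 UMI was found in 25.4% (21.3 to 29.8) of the control endothelial cells and 59.4% (53.4 to 65.1) of the others, against 0.0638% and 0.181% of stellate cells. At full depth, with medians of 11781 and 11992 UMIs, the endothelial values were 40.9% and 76.3%. Cells with 10 or more Wnt2 UMIs made up 1.63% and 13.1% of the class. Dkk3 was found in 2.87% (1.49 to 4.96) and 15.5% (11.5 to 20.3) of thinned cells. At full depth it was found in 7.67% and 34.3% of endothelial cells, against 1.06% and 1.12% of Kupffer cells, whose median depths were 19514 and 25102 UMIs. The 10 cells richest in Wnt2 held 20.9% and 17.3% of its UMIs, and the level without them was 76.7 and 252 CPM.

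The Rspo3 UMIs lay in few cells, since the 10 richest held 78.8% and 75.5% of them. Wnt9b was found in 2.15% (0.989 to 4.05) and 7.42% (4.65 to 11.1) of thinned cells. For Rspo3 the share was 4.07% (2.39 to 6.43) in p16-LRTD, close to the 3.96% (1.99 to 6.97) of Kupffer cells, and 9.19% (6.09 to 13.2) in p16-Alb-LRTD. Stellate markers outside the gate stood in endothelial cells at a median of 2.24% and 1.52% of their stellate level, which for Rspo3 would come to 13.6 and 11.1 CPM of carried-over RNA, or 29.1 and 26.9 CPM by the marker with the highest share. The control level of 18.4 CPM lay within that range and the p16-Alb-LRTD level of 68.5 CPM above it. Without the 10 richest cells of each library, Rspo3 stood at 3.90 and 16.8 CPM, below that range in p16-LRTD and within it in p16-Alb-LRTD. For Dkk3 the highest-share reckoning gives 2.83 and 2.34 CPM, and for Wnt2 0.0104 and 0.0153 CPM, all below the measured levels.

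**Figure D4:**
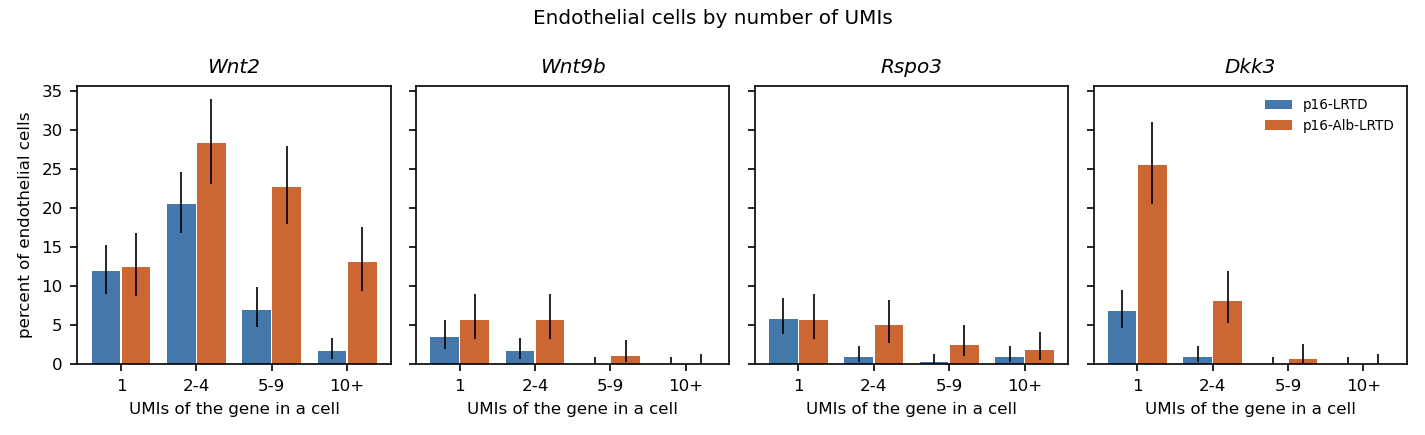
Percent of endothelial cells (y axis) by the number of UMIs of Wnt2, Wnt9b, Rspo3 and Dkk3 found in a cell (x axis), in p16-LRTD and p16-Alb-LRTD at full depth, with exact binomial intervals. Wnt2 shifts toward cells with 5 or more UMIs and Dkk3 toward cells with 1 UMI, while few cells hold Wnt9b or Rspo3.

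Few cells held most of the Rspo3 UMIs in both libraries. Endothelial cells with 5 or more Rspo3 UMIs, a limit chosen after the values were seen, numbered 5 in p16-LRTD and held 77 of 113 UMIs, and numbered 12 in p16-Alb-LRTD and held 218 of 273 UMIs. In p16-Alb-LRTD all 12 cells also had UMIs of Wnt2, Kit, Thbd and Cdh13, and 11 of them had Wnt9b. Their Wnt2 level was 942 CPM and their Wnt9b level 193 CPM, against 274 and 12.9 CPM in the other cells of the class, and the stellate marker Dcn was at 220 CPM (157 to 300), against 260 CPM (244 to 276) in those others. Most endothelial Rspo3 UMIs of this library lay in cells that also held Wnt2, but Wnt2 was common in the class. Of the 271 other cells, 204 had Wnt2, 216 Kit, 185 Thbd and 144 Cdh13, while 24 had Wnt9b. In p16-LRTD the 5 cells were also higher than the others in 4 of these 5 genes, with Wnt2 at 191 against 95.4 CPM, Wnt9b at 47.7 against 4.46 CPM, Thbd at 334 against 66.6 CPM and Cdh13 at 678 against 106 CPM, and 4 of the 5 had Wnt2. Kit was at 267 CPM (178 to 386) against 215 CPM (204 to 227), not apart beyond counting error. Summed over the 5 cells, Dcn was at 4183 CPM (3800.1 to 4593), against 252 CPM in the others, and they held 26 of the 51 Frzb UMIs of the class. The 5 cells were not alike in Dcn, since the 7 control cells with 2 or more Wnt9b UMIs, of which 2 held 27 Rspo3 UMIs between them, had Dcn at 161 CPM. With stellate gate genes limited to under 5 per 10000 UMIs, an alternative added after seeing the data, the Rspo3 ratio was 2.22 (1.85 to 2.61).

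Zone markers that are no members were used to place the cells: Kit or Thbd for the pericentral and Efnb2 or Ltbp4 for the periportal side. Most cells, 70.2% and 80.6%, carried both kinds. Cells with periportal markers alone made up 24.2% of the control class and 10.95% of the p16-Alb-LRTD class, and cells with pericentral markers alone 4.88% (21 cells) and 8.13% (23 cells). Wnt2 was 6.23-fold (3.56 to 11.2) and 12.8-fold (7.50 to 23.4) higher in the pericentral than in the periportal cells. Wnt9b had 3 and 12 UMIs in the pericentral cells and 0 in the periportal cells of both libraries. Most UMIs lay in the cells with both kinds of marker, with 537 of 597 and 1051 of 1213 for Wnt2 and 29 of 32 and 72 of 84 for Wnt9b.

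The Wnt2 difference was also present in each of the 3 bins of cells with markers. In the pericentral cells Wnt2 was at 136 CPM (95.05 to 190) in the control and 658 CPM (556 to 773) in the other library (log2 ratio 2.27, 1.73 to 2.84). In the cells with both kinds of marker it was at 110.05 and 304 CPM (1.47, 1.32 to 1.62), and in the periportal cells at 21.9 and 51.5 CPM (1.23, 0.18 to 2.25). Rspo3 had 0 UMIs in the 21 pericentral cells of p16-LRTD and 69 in the 23 of p16-Alb-LRTD, 309 CPM (240 to 391). The 5 control cells with 5 or more Rspo3 UMIs all held Thbd and Ltbp4, so they lay among the cells with both kinds of marker. In p16-Alb-LRTD a single endothelial cell held 59 of the 273 Rspo3 UMIs of the class, a concentration that the interval does not cover. In the periportal cells Rspo3 had 6 and 4 UMIs, Dkk3 4 and 2, and Wnt9b 0 and 0, too few to show a difference, as were the 2 and 7 Dkk3 UMIs of the pericentral cells. Both libraries were also given the pooled shares of the bins, an alternative chosen after seeing the data. The log2 ratios were then 1.52 for Wnt2, 1.86 for Wnt9b, 1.77 for Rspo3 and 2.37 for Dkk3. Most cells lay in the bin with both kinds of marker, so this weighting could move the ratios little. A shift in the kinds of cell was not tested.

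**Figure D5:**
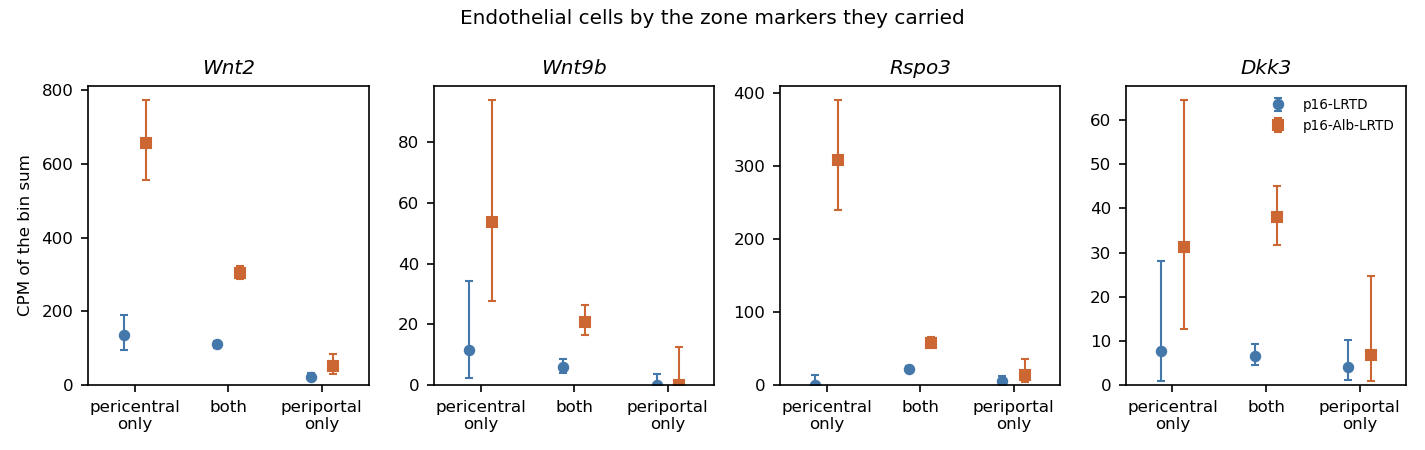
CPM of Wnt2, Wnt9b, Rspo3 and Dkk3 in endothelial cells that carried pericentral markers only (Kit or Thbd), both kinds, or periportal markers only (Efnb2 or Ltbp4), in p16-LRTD (circles) and p16-Alb-LRTD (squares), with exact Poisson intervals. Wnt2 is lowest in the periportal bin of both libraries and higher in p16-Alb-LRTD in each bin, while in p16-LRTD the interval of the pericentral bin includes the level of the cells with both kinds.

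Other pericentral endothelial markers went with these genes. Thbd, thrombomodulin, was at 71.2 and 294 CPM (log2 ratio 2.05), Cdh13 at 115 and 487 CPM (2.08) and Kit at 216 and 341 CPM (0.66), so that all 6 genes of that list, Rspo3, Wnt2 and Wnt9b included, were called higher. Of 5 periportal markers, Dll4 was called lower, at 198 and 87.4 CPM (-1.18), and the others were not called. Genes that respond to tissue dissociation, such as Fos and Jun, were higher as well, 11 of 12 of them called, with a median log2 ratio of 0.91 in endothelial, 0.64 in stellate and 0.32 in Kupffer cells. Dividing cells were fewer: Mki67 and Top2a summed to 28.6 CPM in the control and 2.26 CPM in p16-Alb-LRTD. The 4 lymphocyte markers summed to 8.61 and 0 CPM. Without dividing cells the ratios were 1.75 for Wnt2, 1.97 for Wnt9b, 1.85 for Rspo3 and 2.54 for Dkk3. The part of dissociation in the ligand differences was not tested. Kit and Thbd, which set the pericentral bin, were themselves higher in p16-Alb-LRTD, so that the bins need not hold the same kind of cell in both libraries.

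Frzb and Wnt4, of which Wnt4 was under the minimum level and so could not be called, had lower values in the endothelial cells of p16-Alb-LRTD, and part of their UMIs in p16-LRTD came from a few cells. Wnt4 had 47 and 5 UMIs, 7.64 and 1.26 CPM, and 19 of the 47 came from 1 cell with Dcn at 6518 CPM. Without that cell Wnt4 was at 4.57 CPM (3.04 to 6.60) in p16-LRTD, still above the 1.26 CPM (0.408 to 2.93) of p16-Alb-LRTD. Frzb had 51 and 9 UMIs, 8.29 CPM (6.17 to 10.9) and 2.26 CPM (1.03 to 4.29), and 23 of the 51 came from 2 cells with Dcn at 7266 CPM. Without them Frzb was at 4.57 CPM (3.04 to 6.61), with an interval that overlaps that of p16-Alb-LRTD. Carried-over RNA reckoned from stellate markers would give 4.68 and 2.78 CPM of Wnt4 by the median marker and 10.04 and 6.72 CPM by the highest. For Frzb it would give 3.71 and 2.37 CPM, or 7.97 and 5.74 CPM. The reckoning covers stellate RNA alone, and Wnt4 stood above its stellate level in the barcodes that passed no gate, at 404 and 248 CPM. In p16-Alb-LRTD 10 of these barcodes held 61.1% of the Wnt4 UMIs. Without them the level was 96.4 CPM, below the stellate 182 CPM. The Frzb ratio was -1.87 (-3.08 to -0.84). It was -1.98 (-3.39 to -0.80) without barcodes with fibroblast or mesothelial transcripts and -1.50 (-3.06 to -0.22) with stellate gate genes under 5 per 10000 UMIs, but the gene was no longer called there. In cells of 10000 to 30000 UMIs the interval included 0 (-1.12, -2.60 to 0.17). With every barcode that passed the gate, those that passed another gate included, the Frzb ratio had the opposite sign, at 0.40. The Frzb call also ended with the mitochondrial limit at 10% and with looser gates. Wnt5a (6 and 3 UMIs), Axin2 (8 and 9), Sfrp1 (0 and 1) and Dkk2 (3 and 0) were too rare in endothelial cells for a difference to be detectable at this depth.

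In Kupffer cells no member was called, against 4.85% of 9514 genes called higher and 5.79% called lower. Rspo3, at 7.23 CPM (5.23 to 9.74) and 4.92 CPM (3.08 to 7.45), was the only member at the minimum level, and carried-over stellate RNA reckoned in the same way would give 7.93 and 7.77 CPM. Wnt4 had 43 UMIs in p16-LRTD and 3 in p16-Alb-LRTD, but 33 of the 43 came from 1 cell. The remaining members had at most 13 UMIs in either library, of which Frzb had 13 and 10.

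The pathway around the members was followed in 87 genes of the ligand, receptor, secretion, inhibitor, transducer and target lists, 77 of them not members. In stellate cells 39 of the 87 reached the minimum level, none was called higher and Wnt5a alone was called lower. Over all genes at that level 3.03% were called higher and 3.05% lower, so counts this small do not set the pathway apart. The Frizzled receptors, the Lrp co-receptors and the R-spondin receptor Lgr4 (7.16 and 8.78 CPM) were not called, nor was Wls, the carrier that Wnt proteins need for secretion (259 and 227 CPM). None of the 6 target genes at the minimum level was called, with Nkd1 at 200.2 and 192 CPM and Znrf3 at 21.4 and 21.5 CPM. The median log2 ratio of these target genes was 0.11 in stellate cells, where that of all genes was -0.05.

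In endothelial cells 33 of the 87 reached the minimum level. Beside Rspo3, Wnt2, Wnt9b and Dkk3, the repressor Tcf7l1 of the TCF family was called higher, at 288 and 468 CPM (log2 ratio 0.70, 0.61 to 0.80). Called lower beside Frzb were the cell cycle gene Ccnd1, at 1024 and 395 CPM (-1.37, -1.45 to -1.29), the growth regulator Myc, at 50.5 and 14.8 CPM (-1.77, -2.20 to -1.36), the Dishevelled inhibitor Nkd2, at 19.5 and 8.28 CPM (-1.23, -1.84 to -0.67), and Dvl2, which relays the signal from Frizzled, at 7.96 and 4.27 CPM (-0.90, -1.79 to -0.08). Dvl2, like Frzb, reached the minimum level through p16-LRTD alone, and its call ended with TMM and with median-of-ratios scaling, which shift the ratios by 0.09 and 0.10. Ccnd1, Myc and Nkd2 stand on the target list, of which 4 genes reached the minimum level. Over the pathway 5 of the 33 genes were called lower and 5 higher, against 12.4% and 6.05% of all genes. Mki67 and Top2a, given above, were lower in the same cells. The receptor Fzd4 was at 177 and 202 CPM and was not called. In Kupffer cells 25 pathway genes reached the minimum level and none was called, where 4.85% of all genes were called higher and 5.79% lower.

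Genes whose pattern over single cells was most like that of a member were found by Pearson's correlation on log-scaled UMIs per 10000, over the 7852 and 6621 stellate or the 430 and 283 endothelial cells, as a description, since cells of a library share its preparation and depth. Wnt2 went with Cdh13 (r = 0.485 and 0.552), Ptgs1, Lhx6, Thbd and Kit in endothelial cells. Rspo3 went with Fgfr2 (0.471 and 0.424), Dcn, Tgfbi, Nkain2 and Lhx2 in stellate cells, of which Dcn was at 18430 and 22186 CPM (log2 ratio 0.27). Dkk3 went with Alcam (0.423 and 0.422), Sparcl1, Htra3, Mmp2 and Col1a1, although Col1a1 was at 1950.2 and 504 CPM in stellate cells while Dkk3 was at 58.9 and 63.5 CPM. Wnt5a went with Alcam (0.260 and 0.259), Svep1, Wt1, Plxna4 and Gas6. For Wnt4 and Frzb no gene reached 0.2 in both libraries.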

How the data were processed

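The authors prepared 10x Genomics 3′ v3.1 libraries and deposited them as unnormalized UMI counts (whole numbers, 1 matrix for each library) from Cell Ranger 7.0.1 and mm10, as the submitters' processing notes name them. Whether intronic reads were counted is not given in the sources used here. All values were computed from the deposited counts with Python 3.11.15 and SciPy 1.17.1. After the study's methods, barcodes with a mitochondrial share above 5%, under 2000 or over 7000 genes, or over 50000 UMIs were left out, which kept 9004 of 11149 barcodes (193746596 UMIs before filtering) in p16-LRTD and 7416 of 8806 (162219167 UMIs before filtering) in p16-Alb-LRTD. Of the kept barcodes, 245 and 221 barcodes passed several gates and were left out as possible doublets, with no doublet caller run, and 194 and 113 passed none.

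Counts were summed per class and library. Intervals are exact Poisson for levels, exact conditional for ratios and Clopper-Pearson for shares, at 95%, and cover counting error only. They were run on simulated counts drawn from the Poisson model that they assume, which does not cover the clustering of UMIs in few cells. Cells were thinned to 5000 UMIs without replacement, which left out 16 and 7 shallower stellate, 12 and 0 endothelial, and 5 and 1 Kupffer cells. TMM factors (edgeR 4.0.16) and median-of-ratios factors (DESeq2 1.42.0, R 4.3.3) served as alternative scalings. Named genes are the members, pathway genes that were called, and up to 5 genes with a correlation of at least 0.2 in both libraries for members with at least 20 CPM. Genes outside this rule (zone, dissociation and class markers, Sfrp2 and Rspo1, and uncalled pathway genes) were named to describe the cells. The members and lists were chosen with earlier results of these data known.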

Additional observations from a re-analysis of the deposited data

Results flagged for a closer look

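Barcodes that passed none of the 3 gates (194 in p16-LRTD and 113 in p16-Alb-LRTD) entered none of the comparisons of the named classes, and Wnt4, Sfrp1 and Dkk2 were found in them above the level of each named class. Wnt4 was at 404 CPM (386 to 423) and 248 CPM (229.5 to 268) there, and was found in 60.8% and 42.5% of these barcodes at full depth. In stellate cells that share was 86.1% and 82.4%. The 10 barcodes richest in Wnt4 held 29.0% and 61.1% of its UMIs. Without them the level was 287 and 96.4 CPM, where stellate cells stood at 209 and 182 CPM. Sfrp1 was at 12.8 CPM (9.66 to 16.5) and 7.51 CPM (4.58 to 11.6), and 10 barcodes held 89.5% of its UMIs in p16-LRTD and 5 held them all in p16-Alb-LRTD. Dkk2 was at 10.1 CPM (6.68 to 14.7) in p16-Alb-LRTD, with all 27 UMIs in 1 barcode, and at 2.46 CPM (1.23 to 4.40) in p16-LRTD. These barcodes are a mixture and were given no cell type. They held the fibroblast and mesothelial genes Cd34 at 191 and 102 CPM and Upk3b at 95.6 and 75.1 CPM. The secreted inhibitor Sfrp2, at 50.4 and 145 CPM, and the R-spondin Rspo1, at 21.0 and 28.1 CPM, were chosen after their values were seen.

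Within stellate cells, the gradient of Wnt4 ran in opposite directions in the libraries. Its level in cells with central markers over that in cells with the portal marker was 0.825-fold (0.798 to 0.853) in p16-LRTD and 1.53-fold (1.47 to 1.59) in p16-Alb-LRTD. Its level in the highest over the lowest of the 4 collagen groups was 0.841-fold (0.814 to 0.869) and 1.57-fold (1.51 to 1.63). The difference between the libraries was not tested.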

How the results depend on the processing

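No paired analysis was possible because the comparison held a single library on either side. The log2 ratios of the named members kept their sign under each alternative run, except Frzb in endothelial cells, which was 0.40 with every barcode that passes the gate. Of the values the comparisons rest on, 207 stayed within their counting interval or within 1.5 times the main count, and 49 moved further, as follows. The cause was not tested where none is named.

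In stellate cells the Rspo3 ratio was 0.24 in cells with 10000 to 30000 UMIs, 0.24 without fibroblast or mesothelial transcripts, 0.31 with TMM and 0.31 with median-of-ratios scaling, 0.29 as a mean over cells and 0.25 at pooled zone shares. Wnt5a was at -0.55 without fibroblast or mesothelial transcripts, and members called lower were 0 there, 0 with TMM, 0 with median-of-ratios scaling and 0 at 2-fold. In endothelial cells the Rspo3 ratio was 1.34 with no limits on barcodes, 1.24 with a mitochondrial limit of 10%, 2.26 with looser gates, 1.12 with every barcode that passes the gate and 2.36 in cells with 10000 to 30000 UMIs. With every barcode Wnt2 was at 1.41 and Dkk3 at 1.74, and with no limits Wnt9b was at 1.37. Members called lower in endothelial cells were 2 with no limits and 2 at 1 CPM, and 0 with a mitochondrial limit of 10%, looser gates, without fibroblast or mesothelial transcripts, with stellate gate genes under 5 per 10000, and at 20 CPM. In Kupffer cells they were 1 with looser gates, 1 with stricter gates, 3 with every barcode and 1 at 1 CPM. Of the members' other ratios, 80 values stayed within their interval and 21 moved further. Over its alternatives, Wnt4 ran from -0.33 to -0.15 in stellate cells, where Dkk3 ran from 0.02 to 0.38 and Frzb from -0.11 to -0.03. Axin2 was at 0.44 as a mean over cells. Wnt4 came to -0.08 in endothelial cells with every barcode and to -0.43 in Kupffer cells of 10000 to 30000 UMIs.

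Counts over all genes followed the thresholds. Higher and lower calls were 466 and 713 at 1 CPM in stellate cells, with 121 lower at 20 CPM. At 20 CPM they were 376 and 630 in endothelial and 295 and 167 in Kupffer cells. At 2-fold they were 94 and 96 in stellate, 197 and 360 in endothelial, and 162 and 178 in Kupffer cells. With every barcode, 785 genes were lower in endothelial and 1106 in Kupffer cells. Thinned to 3000 UMIs, an Rspo3 UMI was found in 75.8% and 82.9% of stellate cells, and a Wnt2 UMI in 18.6% and 48.1% of endothelial cells. The pooled zone shares, the limit on stellate gate genes and the set without lymphocyte transcripts were chosen after seeing the data. Means over cells and pooled shares carry no interval and so gave no counts of calls. Depth limits every member but Wnt2 and Rspo3 in endothelial cells, and all members in Kupffer cells, since fewer than 100 UMIs lie behind the value of at least 1 library.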

Other observations

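Barcodes that passed several gates, 245 in the control and 221 in p16-Alb-LRTD, were left out of the comparisons of the named classes as possible doublets. Most passed the stellate and the endothelial gate, 180 and 197 of them. Wnt2 was at 31.7 CPM (27.4 to 36.5) and 113 CPM (105 to 122) there, a log2 ratio of 1.83 (1.60 to 2.07), and Rspo3 at 326 and 446 CPM (0.45, 0.37 to 0.54). Dkk3 was at 22.6 and 43.3 CPM, and Sfrp1 had 2 and 17 UMIs, with 15 of the 17 in 1 barcode. In the barcodes that passed no gate the same genes had the opposite sign, with Wnt2 at 16.1 and 7.51 CPM (-1.10, -1.90 to -0.37), Rspo3 at 40.5 and 28.1 CPM (-0.53, -0.93 to -0.13) and Dkk3 at 54.4 and 38.7 CPM (-0.49, -0.84 to -0.15). In the several-gate barcodes Wnt5a was at 22.2 and 9.75 CPM.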
